A study of Mus musculus with 7 samples.

Results

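Genes of the nuclear lamina, the LINC complex and the nuclear pores were examined in kidneys of LBR-null and WT mice. The set was a list of 37 gene symbols chosen for their place in the nuclear envelope, and all 37 were found among the 24328 symbols of the expression files. It held 17 genes of the lamina and the inner membrane, 5 genes of the LINC complex and 15 genes of the nuclear pore. Polyadenylated RNA of pulverized right kidney was sequenced from 3 LBR-null mice (genotype Lbric-J/ic-J; mice 4001, 4002 and 4007) and from 1 WT littermate (Lbr+/+; mouse 4009). All were C57BL/6J mice at 4 weeks of age. The ic-J allele is a germline loss-of-function mutation of Lbr, which encodes the lamin B receptor, so the mutation is carried by every tissue of these mice and not by the kidney alone. There were 2 libraries for each of mice 4001, 4007 and 4009 and 1 for mouse 4002, and mice are named by number below. The sources used here do not say whether paired libraries came from separate aliquots. Values are normalized counts, that is, reads on a gene divided by a size factor of the library. Libraries were averaged within a mouse, so every difference below sets 3 LBR-null mice against 1 WT mouse.

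The nuclear lamina is a meshwork of A-type and B-type lamins beneath the inner nuclear membrane, where it holds heterochromatin at the nuclear edge together with membrane proteins such as the lamin B receptor, emerin and LAP2. The LINC complex spans both nuclear membranes, with SUN proteins in the inner one and nesprins in the outer one, and links the lamina to the cytoskeleton. Nuclear pore complexes pierce the envelope and are built from nucleoporins that anchor the pore, form its rings and fill its channel. Lamin A and C are abundant in differentiated tissue, whereas the lamin B receptor is the other main tether of peripheral heterochromatin.

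The libraries held 20694016 to 26333284 reads on genes, and 1 read was worth 0.787 to 1.15 normalized counts. Every member had at least 35 reads in each library, and all 37 passed the filter of a mean of 5 normalized counts that left 17283 genes for testing. Markers of kidney tubules and glomeruli were present in all libraries, with none of 10 genes at 0 and sums of 129526 to 234897 in LBR-null and 228766 to 229270 in WT libraries. The sums hide differences of single markers. At least 2-fold lower in the LBR-null mean were 3 of the 10 (7.04% of all tested genes), and 0 were 2-fold higher (14.5%). Their median log2 fold change was -0.66. Mouse 4001 stood apart: 7 skeletal muscle markers, led by Mb, summed to 16569 and 13065 in its libraries, against 281 to 359 in the other LBR-null libraries and 355 and 85.0 in the WT libraries. Sex is not among the labels. The female-expressed Xist had means of 5785 (4001), 65.3 (4002), 9940 (4007) and 35.5 (WT), and the Y-linked Ddx3y of 141, 1516, 44.3 and 1284 in that order. Mouse 4001 thus had high Xist together with more Ddx3y than mouse 4007 and high muscle markers, and whether its libraries hold RNA of more than 1 source was not tested, which limits every value of this mouse. Low Xist with high Ddx3y was seen in the WT mouse and in mouse 4002, but not in mice 4001 and 4007. Sex and genotype are therefore partly confounded in every difference from WT, and the part of sex was not tested. Lbr itself was at 330 and 314 in 4001, 340 in 4002, 495 and 448 in 4007, and 416 and 381 in WT. The genotypes overlapped (limma log2 fold change of -0.10, SE 0.32), and an effect of the ic-J mutation on the amount of its own RNA was not tested, so this gene cannot check the genotypes.

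The study asked about genes with and without CpG islands, so the promoters of members were read from RefSeq windows of 300 bases, 250 before and 50 after the start. Windows were given for 35 members. A window was counted as island-like with a GC content of at least 50% and an observed over expected CpG ratio above 0.6, and a gene by any of its windows. This held for 29 members (82.9%), against 61.9% of 12862 tested genes with a window. The study defined its classes otherwise, by database CpG islands together with regions from CxxC-affinity purification. An island-like window here is therefore not the study's class. The members without one were Lmna, Ndc1, Syne1, Syne3, Tor1aip1 and Zmpste24. The ratios of Ndc1 (0.593) and Zmpste24 (0.596) lay just below the limit. The windows of Lmna started 6604 and 16644 bases inside its GENCODE model on mm9 and that of Syne3 11132 bases inside, so they precede inner starts, and the outermost starts of these models were not covered. The other 33 members had a window start within 500 bases of the model start. The 250 bases before the start are shown for Nrm and Lmnb2, the members with the most negative log2 fold changes, and for Sun2 and Nup210, those with the most positive; the choice was made after their values were seen. The bases are on mm9 at chr10:80380991-80381240 (minus strand) for Lmnb2, chr17:35998013-35998262 (plus) for Nrm, chr15:79572967-79573216 (minus) for Sun2 and chr6:91066821-91067070 (minus) for Nup210, written 5′ to 3′ with each CpG dinucleotide in capitals.
Lmnb2: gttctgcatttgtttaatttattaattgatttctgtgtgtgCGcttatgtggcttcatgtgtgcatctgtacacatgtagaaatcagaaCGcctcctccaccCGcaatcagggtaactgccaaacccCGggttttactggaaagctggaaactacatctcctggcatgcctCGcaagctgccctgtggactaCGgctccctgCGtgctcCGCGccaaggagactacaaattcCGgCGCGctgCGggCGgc
Nrm: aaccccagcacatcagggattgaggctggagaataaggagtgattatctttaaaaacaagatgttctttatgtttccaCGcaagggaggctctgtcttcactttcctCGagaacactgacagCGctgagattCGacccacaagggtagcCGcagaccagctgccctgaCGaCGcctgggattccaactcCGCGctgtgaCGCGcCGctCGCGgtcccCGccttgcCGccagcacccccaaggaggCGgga
Sun2: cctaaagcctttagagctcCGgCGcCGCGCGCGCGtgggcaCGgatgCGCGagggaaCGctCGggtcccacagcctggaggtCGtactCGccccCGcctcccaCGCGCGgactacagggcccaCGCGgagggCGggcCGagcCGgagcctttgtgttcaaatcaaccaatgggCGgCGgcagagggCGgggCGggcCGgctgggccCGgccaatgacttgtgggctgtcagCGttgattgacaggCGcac
Nup210: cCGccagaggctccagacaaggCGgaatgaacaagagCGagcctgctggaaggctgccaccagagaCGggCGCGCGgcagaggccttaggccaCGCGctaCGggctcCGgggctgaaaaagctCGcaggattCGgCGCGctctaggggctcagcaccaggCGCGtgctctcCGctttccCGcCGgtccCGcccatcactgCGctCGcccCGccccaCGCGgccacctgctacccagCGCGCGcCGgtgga
Lmnb2 has 14 CpGs in these bases, Nrm 17, Nup210 30 and Sun2 31.

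Across the 37 members, differences between LBR-null and WT kidneys were small and went both ways. No member differed 2-fold in its mean, whereas 14.5% of all tested genes were at least 2-fold higher in LBR-null kidneys and 7.04% were at least 2-fold lower. Among 11566 tested genes whose mean over the 4 mice lay within the members' range, 5.00% were 2-fold higher and 5.54% 2-fold lower. The median log2 fold change of the members was 0.06, against 0.01 for all tested genes, and was 0.13, -0.05 and 0.13 in mice 4001, 4002 and 4007 taken singly. The median size of the difference, whatever its sign, was 0.196 for the members, 0.413 for all tested genes and 0.315 for tested genes at the members' levels. No member passed an adjusted p of 0.05 by limma, edgeR, DESeq2 or limma on libraries with the mouse as a block. Over all tested genes the percentages called at that limit were 0 and 0 (higher and lower) by limma, 0.00579 and 0.156 by edgeR, 3.22 and 3.51 by DESeq2, and 2.41 and 3.39 by limma with the block. At an unadjusted p under 0.05, limma counted 0 members higher and 1 lower (Lmnb2), against 10.7% and 8.05% of all tested genes. The corresponding counts were 0 and 2 by edgeR (Lmnb1 and Lmnb2; 10.3% and 8.88% of all genes), 0 and 1 by DESeq2 (Lmnb2; 10.6% and 8.42%) and 2 and 3 by limma with the block (Sun2 and Tor1aip1 higher, Lmnb1, Lmnb2 and Icmt lower; 10.8% and 10.8%). In bulk kidney, fewer cells of a type and less RNA per cell cannot be told apart.

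In 8 members (21.6%) all 5 LBR-null libraries lay above both WT libraries, and in 9 (24.3%) all lay below. Over all tested genes these shares were 25.5% and 25.7%, and among tested genes at the members' levels they were 21.3% and 29.4%. Above were Tmpo, Lemd3, Ankle2, Sun1, Sun2, Tor1aip1, Nup210 and Nup88. Below were Lmnb1, Lmnb2, Icmt, Banf1, Syne2, Nrm, Nup50, Nup205 and Nup98. The counts moved with single mice. Without mouse 4001, 12 members lay above (35.7% of all tested genes) and 15 below (35.3%), and the unadjusted limma p was under 0.05 for 2 higher (15%) and 5 lower members (13.4%). Without mouse 4002, 13 lay above (29.7%) and 9 below (29.6%), and limma counted 0 higher (12.2%) and 2 lower (8.6%). Without mouse 4007, 8 lay above (27.9%) and 10 below (28.3%), and the limma counts were 0 (6.12%) and 0 (4.29%).

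**Figure D1:**
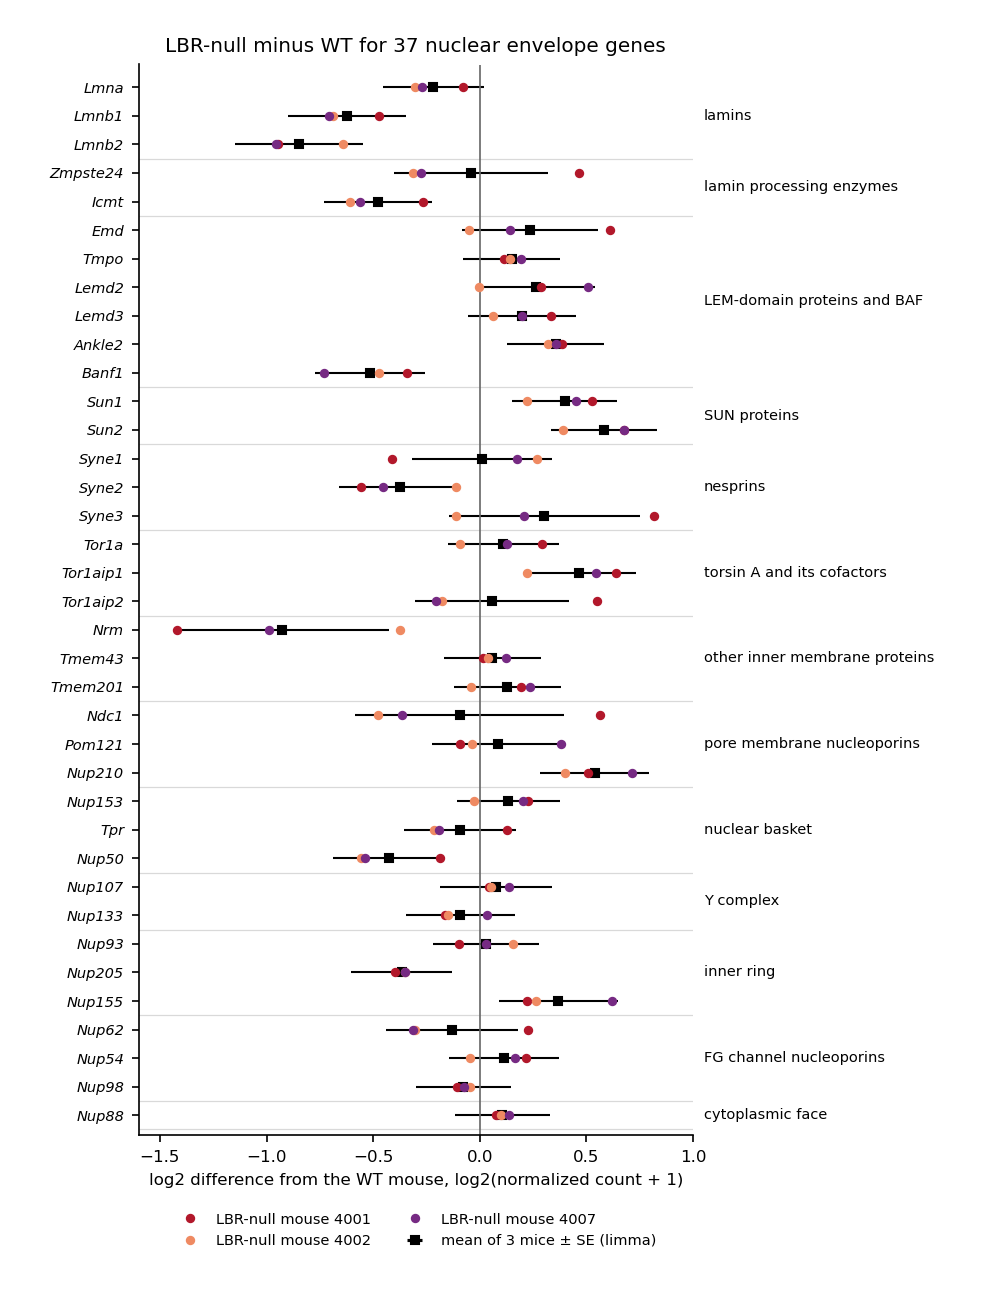
Difference of each of the 37 members from the WT mouse on the log2(normalized count + 1) scale, grouped by role. Coloured points are the 3 LBR-null mice, and squares with bars are their mean and the standard error from limma. The means run from -0.93 (Nrm) to 0.58 (Sun2), all 3 lamins lie left of 0 and both SUN genes lie right of it.

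The 3 lamin genes had lower means in LBR-null than in WT kidneys, and the B-type lamins were below WT in every library. Lmnb2, which encodes lamin B2, had 200 and 190 normalized counts in the libraries of 4001, 241 in 4002, 204 and 182 in 4007, and 406 and 346 in WT. Every LBR-null library thus lay well below both WT libraries. The LBR-null mean was 210 ± 27.0 (SD, n = 3 mice) against 376, or 0.557 times WT (limma log2 fold change of -0.85, SE 0.30, adjusted p = 0.203). Lmnb1, encoding lamin B1, was at 309 and 297 in 4001, 261 in 4002, 257 and 258 in 4007, and 451 and 391 in WT. Again the genotypes did not overlap, and the LBR-null mice differed little from one another. The mean of 274 ± 25.5 (SD, n = 3) was 0.650 times the WT value of 421 (limma log2 fold change of -0.62, SE 0.28, adjusted p = 0.293). Lmna, which encodes lamins A and C, was at 2172 and 1798 in 4001, 1697 in 4002, 1728 and 1752 in 4007, and 2151 and 2041 in WT. The first library of mouse 4001 was above both WT libraries and the other LBR-null libraries were below them, so the groups overlapped (limma log2 fold change of -0.22, SE 0.24, adjusted p = 0.671). The LBR-null mean of Lmna was 1807 ± 155 (SD, n = 3) against 2096.

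The balance of A-type to B-type lamin transcripts was compared as a ratio chosen after the values were seen. The ratio of Lmna to the sum of Lmnb1 and Lmnb2 counts was 4.27 and 3.69 in 4001, 3.39 in 4002, 3.75 and 3.98 in 4007, and 2.51 and 2.77 in WT. All LBR-null libraries lay above WT, with a mean of 3.74 ± 0.315 (SD, n = 3) against 2.64. The ratio of Lmnb1 to Lmnb2 was 1.08 to 1.57 in LBR-null libraries and 1.11 and 1.13 in WT, and these overlapped. Per kilobase of the longest coding transcript, Lmna was at 573 ± 49.3 normalized counts in LBR-null and 664 in WT kidneys, Lmnb1 at 96.3 ± 8.97 and 148, and Lmnb2 at 59.4 ± 7.65 and 106 (SD, n = 3 LBR-null mice). In both genotypes the level per length was thus far higher for the A-type lamin.

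**Figure D2:**
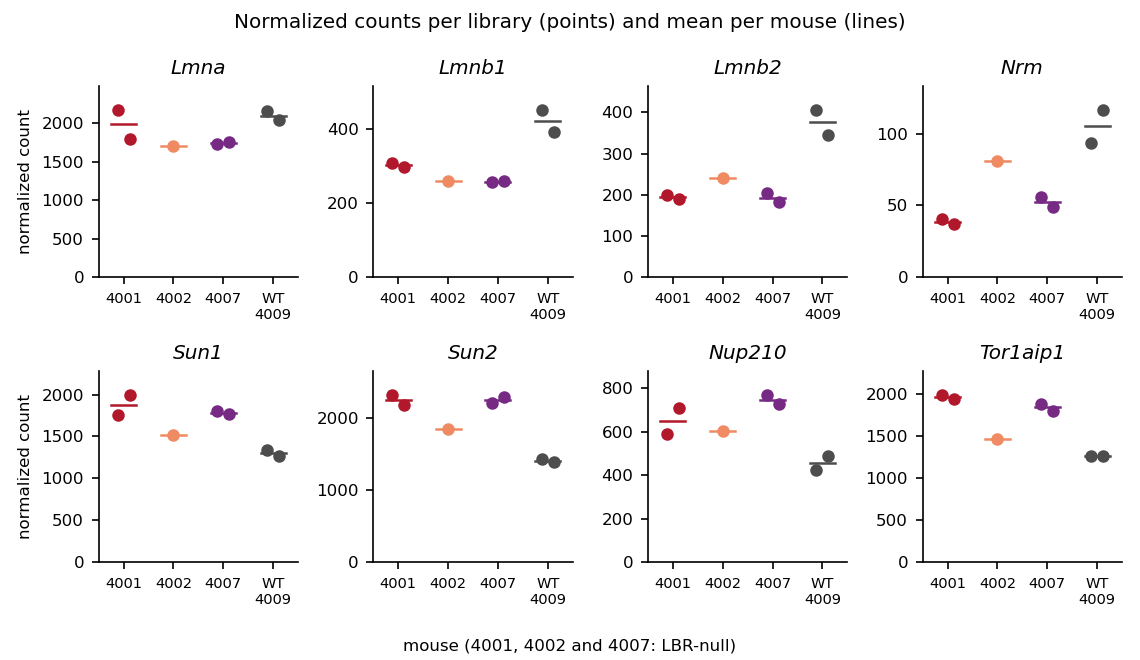
Normalized counts of 8 members in each library (points) with the mean of each mouse (lines), on axes that start at 0. In Lmnb1, Lmnb2 and Nrm every LBR-null library lies below both WT libraries, in Sun1, Sun2, Nup210 and Tor1aip1 every one lies above, and in Lmna the first library of mouse 4001 lies above WT and the others below.

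The enzymes that process prelamin A and other CAAX proteins did not differ from WT alike. Icmt, the methyltransferase that acts on the farnesylated end, was at 1318 and 1411 in 4001, 1078 in 4002, 1038 and 1189 in 4007, and 1621 and 1665 in WT. It was below WT in every library (limma log2 fold change of -0.48, SE 0.25, adjusted p = 0.367), although its exons share 103 bp with Rnf207 on the other strand. Zmpste24, the protease that cleaves prelamin A, was at 2407 and 2616 in 4001, 1466 in 4002, 1530 and 1473 in 4007, and 1819 and 1818 in WT. It was thus above WT in mouse 4001 and below it in the other LBR-null mice, and the limma log2 fold change of -0.04 (SE 0.36) averages opposite differences. Its exons share 125 bp with the small RNA SNORA18 on the same strand.

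Among proteins with a LEM domain and their partner, 5 of 6 had log2 fold changes above 0, as did 8732 of all 17283 tested genes, and 3 of the 6 lay above WT in every library (25.5% of all tested genes). Ankle2, which acts in nuclear envelope reassembly after mitosis, was the most even, at 994 and 1025 in 4001, 967 in 4002, 981 and 1004 in 4007, and 779 and 768 in WT. The LBR-null mean was 990 ± 21.3 (SD, n = 3) against 773, without overlap (limma log2 fold change of 0.36, SE 0.23, adjusted p = 0.451). Tmpo, encoding LAP2 proteins, was at 2119 to 2369 in LBR-null libraries and 1970 and 1974 in WT. Lemd3, encoding MAN1, was at 517 to 665 and at 483 and 508. Both sets of libraries were apart, but by small margins (limma log2 fold changes of 0.15, SE 0.23, and 0.20, SE 0.25). Lemd2 was at 1258 to 1861 against 1257 and 1267 and overlapped with WT. Emd, the X-linked gene of emerin, was at 983 and 898 in 4001, 594 in 4002, 632 and 727 in 4007, and 621 and 610 in WT, and also overlapped. It was higher in mice 4001 and 4007, the mice with high Xist, than in mouse 4002 and the WT mouse, and the part of sex in this was not tested. Its exons share 343 bp with the pseudogene Gm14686 on the same strand, so its reads are uncertain whatever the use of strand. Banf1, encoding the DNA-bridging factor BAF that binds LEM domains, went the other way, at 1687 and 1400 in 4001, 1410 in 4002, 1084 and 1274 in 4007, and 1970 and 1945 in WT. All LBR-null libraries were lower, with a mean 0.704 times WT (limma log2 fold change of -0.52, SE 0.26, adjusted p = 0.343).

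Of the remaining inner membrane genes, Nrm had the most negative fold change of all members. Nrm, which encodes nurim, a multipass membrane protein, was at 40.2 and 37.3 in 4001, 80.8 in 4002, 55.9 and 49.2 in 4007, and 93.7 and 117 in WT. All LBR-null libraries lay below WT, but the LBR-null mice differed 2.09-fold among themselves. The mean was 57.4 ± 21.5 (SD, n = 3) against 105 (limma log2 fold change of -0.93, SE 0.50, adjusted p = 0.377), and Nrm shares 200 bp of exon with a transcript on the other strand. Tmem43, encoding LUMA, was among the steadiest members, at 843 to 941 in LBR-null libraries and 841 and 855 in WT. Tmem201, encoding SAMP1, was at 561 to 713 against 540 and 614. Neither was apart from WT (limma log2 fold changes of 0.06, SE 0.23, and 0.13, SE 0.25).

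Torsin A, an ATPase of the envelope lumen, needs the membrane cofactors LAP1 and LULL1. Tor1aip1, encoding LAP1, was at 1992 and 1942 in 4001, 1471 in 4002, 1882 and 1803 in 4007, and 1259 and 1267 in WT. Each LBR-null library was higher than WT, with a mean 1.39 times WT (limma log2 fold change of 0.47, SE 0.26, adjusted p = 0.397). Tor1aip2, encoding LULL1, was at 4215 and 4015 in mouse 4001 but only at 2370 to 2518 in the other LBR-null mice, against 2763 and 2864 in WT. These genes lie head to head on chromosome 1 with 351 bp and 511 bp of overlapping exon on opposite strands. Since use of strand in the counting is not stated, their reads may be shared. Tor1a, encoding torsin A, was at 659 to 900 against 689 and 715 and overlapped (limma log2 fold change of 0.11, SE 0.26).

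Both SUN genes of the LINC complex were higher in every LBR-null library, whereas the nesprin genes differed from each other. Sun2 was at 2318 and 2180 in 4001, 1848 in 4002, 2211 and 2290 in 4007, and 1422 and 1392 in WT. The lowest LBR-null library was clear of the highest WT library, and the mean of 2116 ± 232 (SD, n = 3) was 1.50 times WT (limma log2 fold change of 0.58, SE 0.25, adjusted p = 0.279). Sun1 was at 1758 and 1997 in 4001, 1519 in 4002, 1799 and 1765 in 4007, and 1343 and 1265 in WT, again without overlap. Its mean was 1.32 times WT (limma log2 fold change of 0.40, SE 0.25, adjusted p = 0.435), and mouse 4002 was the nearest to WT for both genes. Per kilobase, Sun2 was at 556 ± 61.1 and Sun1 at 418 ± 44.9 in LBR-null mice (SD, n = 3), against 370 and 315 in WT. The ratio of the summed SUN counts to the summed B-type lamin counts was 6.72 to 9.21 in LBR-null libraries and 3.22 and 3.61 in WT libraries, with means of 7.99 ± 1.15 (SD, n = 3) and 3.42. This ratio was also chosen after the values were seen. Its separation was fixed in advance, since both SUN genes lay above and both B-type lamin genes below WT in every library. It therefore adds no evidence to the values of the single genes. Sun2 shares 147 bp of exon with a noncoding gene on the other strand.

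Nesprins are the large outer membrane partners of SUN proteins. Syne2, encoding nesprin-2, was at 2691 and 3945 in 4001, 4525 in 4002, 3605 and 3537 in 4007, and 4903 and 4871 in WT. It was below WT in every library, but the libraries of mouse 4001 lay farther apart than the mouse means of 4002 and 4007 (limma log2 fold change of -0.37, SE 0.28, adjusted p = 0.526). Syne1, encoding nesprin-1, was at 832 and 934 in mouse 4001, below WT (1189 and 1162), and at 1285 to 1414 in the other LBR-null mice, above it. Syne3, encoding nesprin-3, was low, at 88.6 to 202 against 85.0 and 107, and had, on the log2 scale, the widest gap of all members between libraries of 1 mouse in each mouse with 2 libraries. No order of the nesprins by genotype can be read from these values.

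Nuclear pore genes differed from WT in both directions, 8 with log2 fold changes above 0 and 7 below, and their median log2 fold change was 0.03. Of the nucleoporins in the pore membrane, Nup210 stood out, at 590 and 709 in 4001, 601 in 4002, 769 and 726 in 4007, and 425 and 487 in WT. Nup210 encodes GP210, a transmembrane nucleoporin whose level varies between cell types. Its LBR-null libraries were all above WT, with a mean of 666 ± 74.6 (SD, n = 3) against 456 (limma log2 fold change of 0.54, SE 0.26, adjusted p = 0.323). Ndc1, a pore anchor, was at 192 and 178 in mouse 4001 and 89.4 to 103 in the other LBR-null mice, on either side of WT (125 and 125). Pom121 was at 226 to 407 against 274 and 311, and 665 bp of its exons overlap with Nsun5 on the other strand.

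The scaffold of the pore was close to WT except for parts of the inner ring. Nup205 of the inner ring was at 544 and 527 in 4001, 553 in 4002, 568 and 537 in 4007, and 711 and 700 in WT. The LBR-null mice were nearly equal and all below WT, with a mean of 547 ± 9.80 (SD, n = 3) against 706 (limma log2 fold change of -0.37, SE 0.24, adjusted p = 0.455). Nup155 of the same ring was at 434 to 673 against 401 and 436 and overlapped, with a limma log2 fold change of 0.37 (SE 0.28). Nup93 was at 560 to 679 against 596 and 624. In the Y complex, which forms the outer rings, Nup107 was at 301 to 334 against 297 and 309, and Nup133 at 407 to 489 against 460 and 468. All 3 of these overlapped with WT, with limma log2 fold changes from -0.09 to 0.08.

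Of the nuclear basket, Nup50, which also takes part in import, was at 1206 and 1178 in 4001, 921 in 4002, 960 and 905 in 4007, and 1319 and 1390 in WT. It was below WT in every library, with mouse 4001 nearest (limma log2 fold change of -0.43, SE 0.26, adjusted p = 0.433). Nup153 was at 927 to 1181 against 935 and 955, and Tpr, the filament protein of the basket, at 2325 to 3108 against 2657 and 2740. Among FG nucleoporins of the channel, Nup98 was at 1094 to 1149 against 1182 and 1189, apart from WT by a margin of a few percent (limma log2 fold change of -0.08, SE 0.22). Nup62 was at 448 to 675 against 562 and 581, with mouse 4001 above WT and the others below, and shares 114 bp of exon with Il4i1 on the same strand. Nup54 was at 442 to 542 against 434 and 478. Nup88 on the cytoplasmic face was at 1303 to 1420 against 1227 and 1276, a difference of 0.11 (SE 0.22) on the log2 scale. Separation from WT without overlap, as in Nup98 and Nup88, thus also came with differences smaller than their standard errors.

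**Figure D3:**
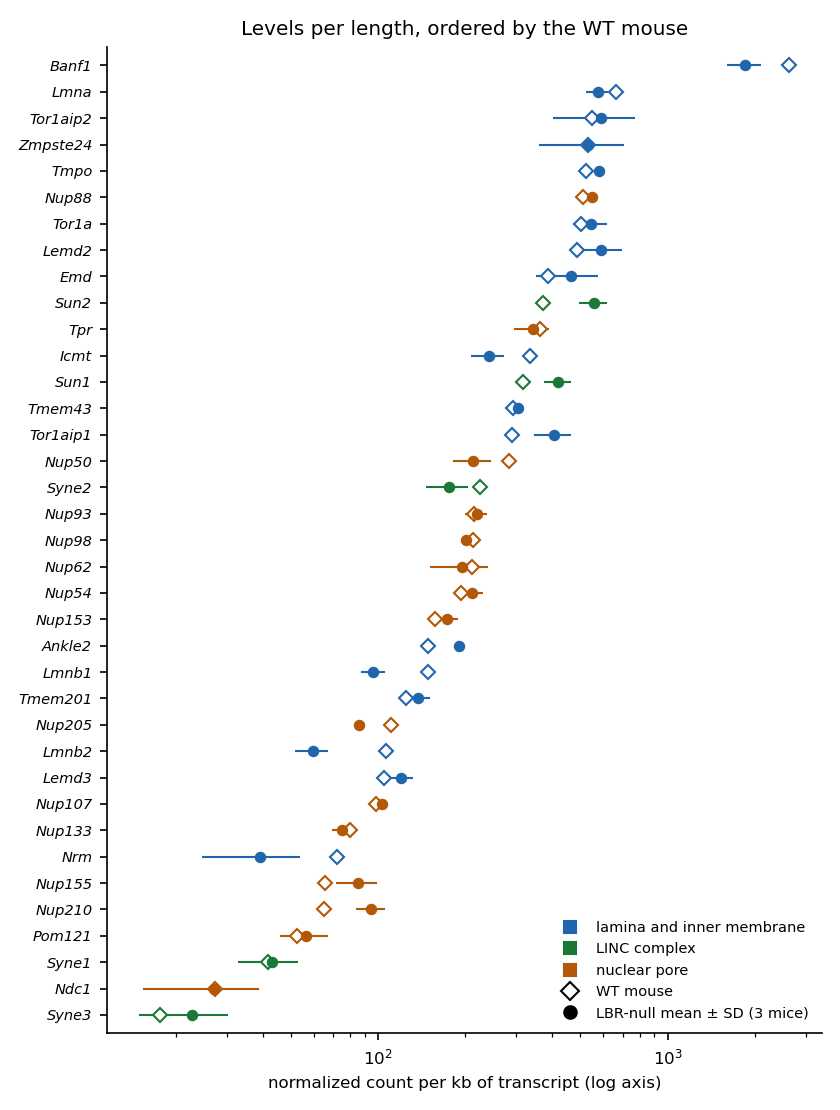
Normalized counts per kilobase of the longest coding transcript on a log axis, for the WT mouse (diamonds) and the mean of the 3 LBR-null mice with its SD (circles), ordered by the WT level. Banf1 is highest at 2638 in WT, followed by Lmna at 664, and Syne3 is lowest at 17.6.

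Levels per length spanned over 100-fold within the set. In the WT mouse, Banf1 was highest with 2638 normalized counts per kilobase, followed by Lmna (664), Tor1aip2 (548), Zmpste24 (530) and Tmpo (522). The lowest were Syne3 (17.6), Ndc1 (27.3) and Syne1 (41.7), of which Syne1 has a model transcript of 28.2 kb. In LBR-null mice Banf1 was at 1857 ± 248, still above Lmna at 573 ± 49.3 and Tmpo at 579 ± 15.9 (SD, n = 3). Neighbours in the order such as Lmna, Tor1aip2, Zmpste24, Tmpo and Lemd2, all between 533 and 590 in LBR-null mice, did not differ beyond their spread. A long transcript counted at full length gives a low value where shorter isoforms are used, and isoforms were not counted separately.

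Some members varied more between LBR-null mice than between genotypes. Both libraries of mouse 4001 lay above all others in 9 members (24.3%; 19.3% of all tested genes), namely Zmpste24, Emd, Syne3, Tor1a, Tor1aip1, Tor1aip2, Ndc1, Tpr and Nup62. They lay below all others in 3 (8.11%; 18% of all tested genes), namely Syne1, Nrm and Nup93. Both libraries of mouse 4007 lay above all others in 6 members (10.9% of all tested genes) and below all others in 2, Lmnb1 and Banf1 (12.8%). The ratio of the highest to the lowest LBR-null mouse had a median of 1.247 in the members and 1.453 over all tested genes, and was greatest in Nrm (2.09) and Ndc1 (2.07). Mouse 4001 is also the mouse with the high sum of muscle markers, and the part of these in its values was not tested. Without mouse 4001, the log2 fold changes were -0.80 for Lmnb2, -0.70 for Lmnb1 and 0.53 for Sun2, near those of all mice. In mouse 4002 alone, whose Xist and Ddx3y levels were nearest to those of the WT mouse, they were -0.64, -0.69 and 0.39, while that of Nrm was -0.38.

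Marker lists of cell types were set beside the members. All 12 markers of proliferating cells, led by Mki67, lay below WT in every LBR-null library and were at least 2-fold lower in the mean. Their sum was 559 and 593 in 4001, 444 in 4002, 367 and 358 in 4007, and 3322 and 3313 in WT, and their median log2 fold change was -2.77 (12 of 12 at an unadjusted limma p under 0.05 and 0 past the adjusted limit). A place below WT in every library was shared by 9 members and by 25.7% of all tested genes. Among the LBR-null mice the marker sum was highest in mouse 4001 and lowest in mouse 4007. Of these 9 members, Lmnb1 (means of 303, 261 and 257 in 4001, 4002 and 4007) and Banf1 (1544, 1410 and 1179) had the same order of mice. Lmnb2, Icmt, Syne2, Nrm (38.7, 80.8 and 52.5), Nup50, Nup205 and Nup98 had another order. The part of proliferating cells in the members' values was not tested. None of the 12 markers was at 0. Neutrophil markers, led by S100a8, summed to 396 to 2508 in LBR-null and 79.6 to 84.3 in WT libraries, above WT in every library for 7 of the 8 tested. Macrophage markers, led by Csf1r, were below for 7 of 8, with sums of 2404 to 2871 against 4140 and 4170. Fibroblast markers, led by Col1a2, summed to 14754 to 28950 against 37878 and 38818, with 3 of 6 below. They did not differ alike: 3 were at least 2-fold lower in the LBR-null mean (7.04% of all tested genes) and 2 at least 2-fold higher (14.5%). Adipocyte markers were below for 3 of 5, but their sums overlapped, at 5072 to 8790 against 6190 and 6269, and the most abundant, Fabp4, was not below (5002 to 8566 against 4954 and 5042). Erythroid markers were below for 3 of the 4 tested, with sums of 1476 to 2385 against 3776 and 3913, while the most abundant, Slc4a1, overlapped with WT (852 to 1786 against 1625 and 1707) and 2 of the list (Hbb-b1, Hbb-b2) had only values of 0. Lymphocyte markers, led by Cd79b, gave 1 above and 2 below of 7, endothelial markers, led by Pecam1, 0 above and 2 below of 6, kidney tubule and glomerulus markers, led by Slc12a1, 1 above and 6 below of 10, and muscle markers 2 above and 0 below of 7.

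**Figure D4:**
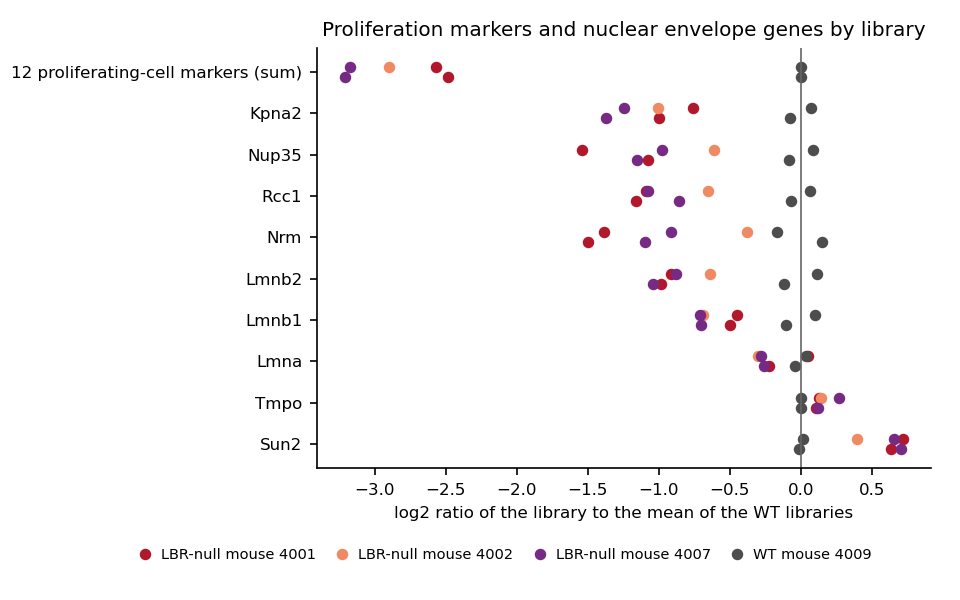
Log2 ratio of each library to the mean of the WT libraries for the sum of 12 proliferation markers, 3 transport and pore genes outside the set, and 6 members. The 3 genes outside the set had the most negative log2 fold changes of 54 tested envelope and transport genes, whose median was -0.04. Nrm and Lmnb2 had the most negative ones of the members. Points are libraries, coloured by mouse. The marker sum lies between 2 and 4 log2 units below WT in every LBR-null library, the B-type lamins and Nrm lie at smaller distances below it, and Sun2 lies above.

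A wider list of 56 genes of the envelope and of nuclear transport was set beside the members. Of 54 tested, 6 lay above (25.5% of all tested genes) and 15 below WT (25.7%) in every library, 0 and 4 were past an unadjusted limma p of 0.05 in the higher (10.7%) and lower direction (8.05%), and 0 passed the adjusted limit. Their median log2 fold change was -0.04. The most negative values belonged to Kpna2, an importin alpha, at 446 ± 66.1 (SD, n = 3) against 924 (limma log2 fold change of -1.06, SE 0.28, adjusted p = 0.127), Nup35, a linker nucleoporin, at 138 ± 34.0 against 268, and Rcc1, the exchange factor that loads Ran with GTP, at 231 ± 38.9 against 432. The most positive belonged to Lpin1, a phosphatidate phosphatase, with a limma log2 fold change of 0.94 (SE 0.44), and to Nup210l (0.41, SE 0.49) and Ipo5, an importin (0.37, SE 0.40). The part of proliferating cells in the values of Kpna2, Nup35 and Rcc1 was not tested.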

How the data were processed

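RNA of 7 kidney libraries from 3 LBR-null mice and 1 WT mouse was analysed, and groups follow the genotype in the labels. Per the submitters' processing notes, STAR 2.6.0 was the aligner, mm9 the genome and DESeq2 1.25.1 the source of size factors. The deposited signal is the read count of a gene symbol after division by the size factor of its library. The counting program, its annotation and its use of strand are not given in the sources used here. Whole reads were recovered for 100% of values within 0.01 read. The members and all lists were chosen with earlier results of these data known.

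Libraries were averaged within a mouse. limma 3.58.1 (eBayes with trend, R 4.3.3) was fitted on log2(normalized count + 1) of 17283 genes with a mean over mice of at least 5, with Benjamini-Hochberg adjustment over all of them, 2 residual degrees of freedom and an assumed spread of WT mice equal to that of the LBR-null mice. Fold changes on this scale understate low genes. The alternatives were the quasi-likelihood test of edgeR 4.0.16 on recovered reads summed per mouse, DESeq2 1.42.0 on the same sums, and limma on libraries with the mouse as block (correlation 0.741). The limma and edgeR steps were also run on simulated counts whose changes were larger than that of any member. That run cannot show how well differences of the members' size would be found. Nothing says whether libraries of a mouse are separate extractions, so the mouse was the replicate. The text names all members, of the wider envelope list Lbr and the 3 most positive and 3 most negative tested genes, and of each marker list its most abundant gene; Ly6g was not found. Coordinates and lengths come from GENCODE vM1 models on mm9, with Syne3 and Ndc1 found under older symbols. Promoter windows are RefSeq's (GRCm38.p6), placed on mm9 by an exact match of all 300 bases. Depth limits only the lowest members, as the fewest reads were 35 (Nrm).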

Additional observations from a re-analysis of the deposited data

Results flagged for a closer look

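In each member, the highest and lowest of the 5 LBR-null libraries were set against the others, and in 2 of 37 members a library stood far from the rest. Chance gives about 1 in 20 such groups, and libraries of a mouse are not independent. For Lmna this was the first library of mouse 4001, with 2172 normalized counts against 1697 to 1798 in the other LBR-null libraries and 2041 and 2151 in WT. For Tmpo it was the first library of mouse 4007, with 2369 against 2119 to 2174 and, in WT, 1970 and 1974. The cause was not tested for either.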

How the results depend on the processing

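No paired analysis was possible because the samples hold 1 WT mouse and replicate numbers name libraries of a mouse. Of 37 members, 30 kept their direction in all 13 alternatives with a test, and none passed an adjusted p of 0.05 in any, the lowest adjusted p of a member lying between 0.0972 (Lmnb2, without mouse 4001) and 0.636 (Lmnb2, without mouse 4007). Of the log2 fold changes that turned, those with TMM scaling were -0.0186 for Syne1 and -0.000300 for Nup93, those with the first library of each mouse were -0.0193 for Syne1, -0.0109 for Tmem201, -0.129 for Pom121 and -0.0345 for Nup93, and that with the mouse as block was -0.0019 for Syne1. When a mouse or a WT library was left out, the log2 fold change ran from -0.294 to 0.0945 for Zmpste24 (above 0 without mouse 4002 or 4007), -0.117 to 0.222 for Syne1 (below 0 without mouse 4002, mouse 4007 or the second WT library), -0.19 to 0.186 for Tor1aip2 (below 0 without mouse 4001), -0.422 to 0.0982 for Ndc1 (above 0 without mouse 4002 or 4007), -0.0633 to 0.179 for Pom121 (below 0 without mouse 4007 or the second WT library) and -0.0342 to 0.0927 for Nup93 (below 0 without mouse 4002 or the second WT library). The cause was not tested.

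In mouse 4002 alone, which has no test, 9 members had the opposite sign to the mean of the 3 mice (Emd, Lemd2, Syne3, Tor1a, Tor1aip2, Tmem201, Pom121, Nup153 and Nup54). The median over the members was -0.0458 in mouse 4002 alone, -0.0109 with first libraries and 0.0401 to 0.0982 when a mouse or a WT library was left out. Members past an unadjusted p of 0.05, each with the share of all tested genes, numbered 2 higher (7.98%) and 3 lower (6.38%) with no filter, 2 lower (7.23%) with first libraries, 2 lower (8.88%) by edgeR, 2 higher (10.8%) and 3 lower (10.8%) with the block, and 0 to 2 higher and 0 to 5 lower when a mouse or library was left out (1, 11.1%, and 2, 8.27%, without the second WT library). With a mouse or library left out, members apart from WT numbered 8 to 13 above and 9 to 15 below (13 above, 29.7%, without mouse 4002 and 15 below, 35.3%, without mouse 4001). With TMM scaling they numbered 7 (24%) and 9 (27.2%). Members at least 2-fold lower numbered 0 to 1, the 1 being Nrm, at 0.434 times WT without mouse 4002 (8.49% of all tested genes) and 0.492 times without the first WT library (7.23%). With 1 WT mouse, the spread between WT kidneys is unknown.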
